A study of Mus musculus with 17 samples.

Results

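Limb buds of 2 duplications at the Sox9-Kcnj locus, Dup-C and Dup-L, were compared with each other by RNA sequencing of polyA RNA from mouse embryos at E12.5. The comparison rests on 4 of the 15 libraries that have a column in the count table, 2 of Dup-C and 2 of Dup-L, taken by genotype and replicate number from the labels. Their column headers carry library numbers of the same range. The labels give no zygosity, sex or strain for either duplication, and they do not say whether fore- or hindlimb buds were taken or whether replicates are separate embryos. The p-values therefore measure only the spread between these libraries, which may be technical. Reference limb buds of the same age came from 4 wild-type (WT) libraries, numbered 1 to 4. The remaining 7 libraries, of a boundary deletion (deltaBor, heterozygous or homozygous) and of Dup-L with that deletion, entered the models to estimate the spread and were not compared. The homozygous deletion has 1 library, which adds nothing to that estimate. Columns R4 and R5 of Dup-L with the deletion carry the same library number, so they may not be independent.

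Sox9 encodes the transcription factor that starts cartilage formation, and it lies in a gene-poor chromosome domain filled with its enhancers. The adjacent domain holds Kcnj2 and Kcnj16, genes of potassium channels of the inward-rectifier family. In mice, both duplications cross the boundary between these domains, and the longer Dup-C also takes in Kcnj2, while Dup-L stops short of it. Limb type is set by another group of genes: Pitx1, Tbx4 and Isl1 act in the hindlimb bud, and Tbx5 acts in the forelimb bud.

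Total counts ran from 3.61e7 to 5.20e7 in the 4 duplication libraries and from 3.45e7 to 5.37e7 in WT. Pitx1 split the WT libraries, with WT 1 and WT 3 high and WT 2 and WT 4 low. The same split separated Dup-C from Dup-L. The difference of WT 1 and 3 minus WT 2 and 4 was therefore taken as the limb-type difference and subtracted from that of Dup-C minus Dup-L, gene by gene. These WT pairs were read from the measured level of Pitx1 and not from labels, so Pitx1 and the genes that follow it are described here without being counted as findings of the subtracted comparisons. Xist, the X-inactivation RNA of female cells, stood at 2600 CPM (library-scaled counts, as all levels here) in Dup-C 1 and at 1.35 CPM in Dup-C 2, against 1.19 and 0.910 CPM in Dup-L. WT 1 also had 2300 CPM of Xist, while WT 2, 3 and 4 had at most 1.02 CPM. The summed level of 16 measured genes of distal limb mesenchyme was 1870 and 1940 CPM in Dup-C, 1630 and 1690 CPM in Dup-L, and 1270 to 1970 CPM in WT.

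Kcnj2 was the gene of the locus that differed between the duplications. It stood at 88.3 and 75.7 CPM in Dup-C and at 24.5 and 32.1 CPM in Dup-L. WT libraries 1 to 4 had 26.6, 22.0, 22.6 and 17.7 CPM. Both Dup-C libraries were above all Dup-L and WT libraries, while Dup-L overlapped WT. The fold change of Dup-C over Dup-L was 2.78, or 1.47 ± 0.22 (SE) on the log2 scale, with an adjusted p of 0.00906 (edgeR quasi-likelihood test, Benjamini-Hochberg over all genes tested). By p-value this placed Kcnj2 at rank 12 among 17655 genes.

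The 250 bases before the start site of Kcnj2 are shown because this is the gene the comparison turns on. They are from RefSeq, build GRCm38.p6, chr11:111065914-111066163, plus strand, with a GC content of 65.6%. Capitals mark 2 copies of GGGCGG, the letters of Sp-type GC boxes, and 1 copy of CCAAT on the opposite strand, which reads ATTGG here.
Kcnj2 promoter: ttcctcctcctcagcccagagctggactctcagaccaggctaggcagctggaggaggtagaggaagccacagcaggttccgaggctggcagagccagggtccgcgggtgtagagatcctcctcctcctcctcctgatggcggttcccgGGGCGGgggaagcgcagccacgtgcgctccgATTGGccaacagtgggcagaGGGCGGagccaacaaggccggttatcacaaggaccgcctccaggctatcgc
The GC boxes begin 102 and 51 bases before the start site, and the CCAAT match begins 71 bases before it. Both strands were searched for 5 motifs, and matches of different motifs were counted separately even where they could overlap. GGGCGG occurred in 32.9% and CCAAT in 34.5% of the same 250-base windows of 27025 genes. TATAAA, the ETS-type letters CCGGAAG and the SOX-type letters ACAAT were not in this window of Kcnj2.

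The other measured genes of the locus did not pass the test between the duplications. Sox9 stood at 175 and 142 CPM in Dup-C, against 128 and 136 CPM in Dup-L and 124 to 164 CPM in WT. Its log2 difference was 0.21 ± 0.17 (SE; edgeR adjusted p = 0.41). Both Dup-C libraries were above both Dup-L libraries, but all 4 overlapped the WT range. Map2k6, a kinase of the p38 pathway on the far side of Kcnj16, had 57.3 and 64.3 CPM in Dup-C and 50.7 and 52.2 CPM in Dup-L (log2 difference 0.18, edgeR adjusted p = 0.396). Slc39a11, a zinc transporter gene beyond Sox9, lay between 14.5 and 16.7 CPM in all 8 libraries of the duplications and WT. Kcnj16 had at most 2 counts in any duplication library and 3 in any WT library, so it was not tested. Of the 12 inward-rectifier channel genes that were tested, only Kcnj2 passed, and Kcnj4, next by p-value, stayed at or below 0.406 CPM in the 8 libraries.

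**Figure D1:**
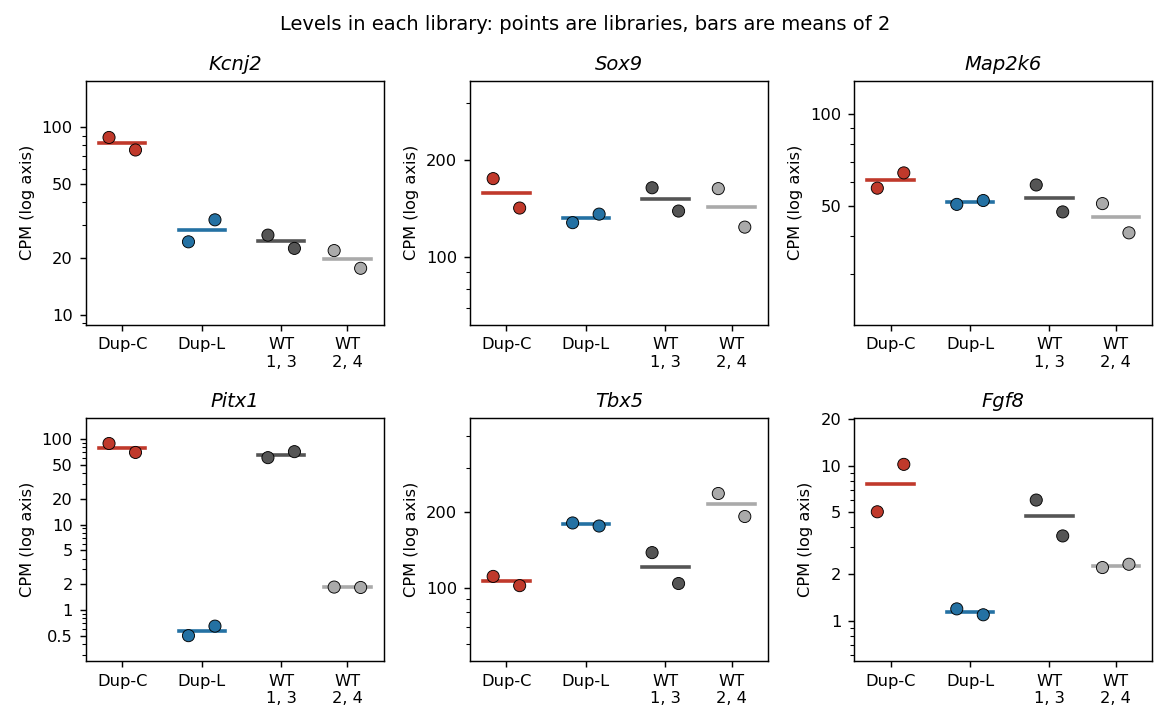
Levels in CPM on log axes for 6 genes in the 2 Dup-C, 2 Dup-L and 4 WT libraries, with points for libraries and bars for the mean of each pair. Kcnj2 was higher in Dup-C than in every other library shown, Sox9 overlapped, and Pitx1, Tbx5 and Fgf8 put Dup-C beside WT 1 and 3.

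Across all genes, 2674 of 17655 differed between Dup-C and Dup-L (15.1%), of which 1728 were higher (9.79%) and 946 lower (5.36%) in Dup-C by the edgeR test at an adjusted p of 0.05. At least 2-fold differences were found for 568 of them. The 2 libraries of each duplication did not overlap for 6511 genes that were higher (36.9%) and 5431 that were lower (30.8%) in Dup-C. The count of called genes rested on having 2 libraries on each side. Without Dup-C 1, Dup-C 2, Dup-L 1 or Dup-L 2, edgeR called 0 genes, with 3577 to 4395 genes at an unadjusted p under 0.05. Kcnj2 then kept a log2 difference of 1.29 to 1.70, with adjusted p-values of 0.0524 to 0.113.

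Genes of limb type mostly differed between the duplications in the same direction as between the WT pairs. Pitx1 had 88.7 and 69.7 CPM in Dup-C and 0.503 and 0.650 CPM in Dup-L, beside 60.6 and 71.2 CPM in WT 1 and 3 and 1.86 and 1.84 CPM in WT 2 and 4. Tbx4 had 76.8 and 67.1 CPM in Dup-C and 19 and 18 CPM in Dup-L, against 65.3 and 88.0 CPM in WT 1 and 3 and 26.2 and 27.7 CPM in WT 2 and 4. Of the 7 other hindlimb genes besides Pitx1, 5 were higher in Dup-C and 0 lower (9.79% of all genes were higher). Their median log2 difference was 1.90, beside −0.04 over all genes tested. This is a description, since the WT pairs were set by Pitx1 and most of these genes follow it. Besides Tbx4, the 5 were Hoxc9, Hoxc10, Hoxc11 and Hoxc12, posterior genes of the HoxC cluster. Hoxc12 differed by only 0.33 between the WT pairs. With GC and length offsets, 2 of the 7 were higher, Tbx4 and Hoxc11 (3.31% of all genes were higher). Hoxc11 had 3.77 and 4.82 CPM in Dup-C and 0.529 and 0.468 CPM in Dup-L (log2 difference 3.04 ± 0.61, SE, edgeR adjusted p = 0.0109). Tbx5, of the forelimb list, was lower in both Dup-C libraries, with 111 and 102 CPM in Dup-C and 181 and 176 CPM in Dup-L, but it did not pass the test (log2 difference −0.80, edgeR adjusted p = 0.0645). The other 3 genes of that list, Hoxc4, Hoxc5 and Hoxc6, had log2 differences of 1.56, 0.97 and 1.16, and none passed. With the WT difference subtracted, the median of the 7 hindlimb genes was 0.40, and 0.29 with GC and length offsets as well.

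Pitx1 in Dup-L was below all WT libraries. Its log2 difference, given as a description only, was 7.03 ± 2.07 (SE) between the duplications and 5.15 between the WT pairs. Hoxc11 in Dup-L was below the WT libraries too, and 1.22 of its log2 difference was left after subtraction and offsets (unadjusted p = 0.0297, edgeR adjusted p = 0.877). Hoxc9 left 0.45, Hoxc10 0.24, Hoxc13 −0.34 and Tbx5 0.02.

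Over 13220 genes with a mean of at least 1 CPM and known GC content, the log2 difference of Dup-C and Dup-L correlated with the WT difference at a Pearson's r of 0.577 across genes. A straight line on the WT difference accounted for 33.3% of its variance, and a smooth curve on GC content and transcript length for 26.8%. The points are genes of the same 8 libraries and not independent replicates, so no p is given. The standard deviation over genes was 0.511 for the duplication difference and 0.351 for the WT difference. It was 0.421 after subtraction and 0.331 after subtraction with GC and length offsets.

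**Figure D2:**
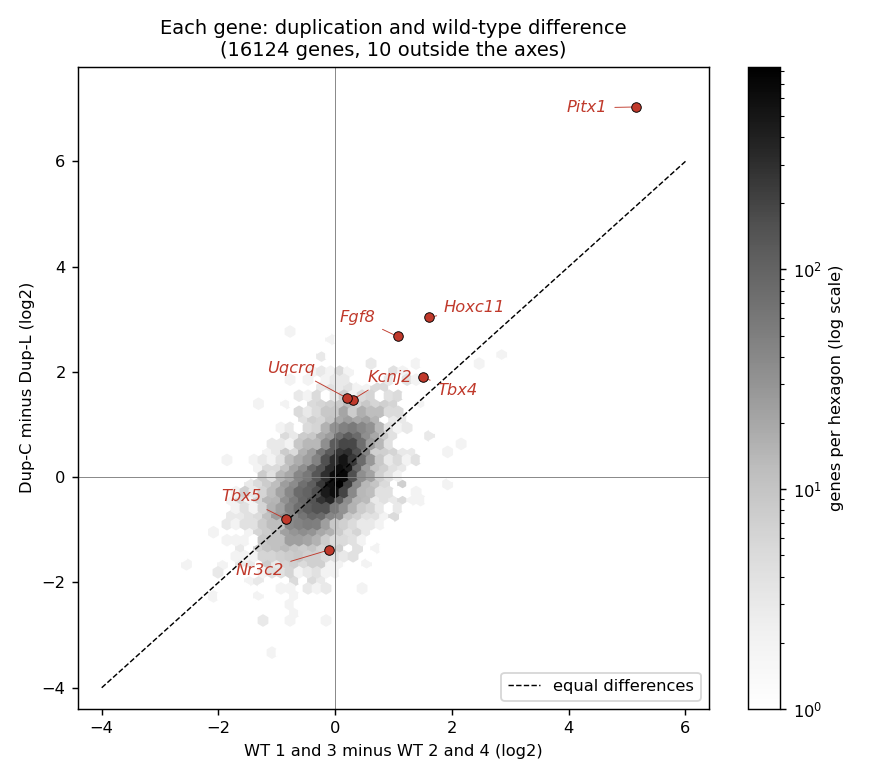
Log2 difference of Dup-C minus Dup-L (vertical) against WT 1 and 3 minus WT 2 and 4 (horizontal), as a density of genes with named genes in red and a dashed line of equal differences. Tbx5 lies on the line, Pitx1, Hoxc11 and Fgf8 lie above it, and Kcnj2 and Uqcrq lie well above it at a WT difference near 0.

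GC content moved with the duplication difference and not with the WT difference. In the 5 bins of GC content, lowest to highest, the median log2 difference of Dup-C minus Dup-L was −0.28, −0.15, −0.01, 0.15 and 0.39. The same medians for the WT pairs lay between −0.01 and 0.02. Subtracting the WT difference left the slope in place, with −0.26 in the lowest bin and 0.41 in the highest. In the highest bin 30.8% of genes were called, against 8.59% in the middle bin. The pairs of replicates also differed with GC content, with a Pearson's r over 13925 genes of 0.316 for Dup-C 1 minus Dup-C 2, 0.228 for Dup-L 1 minus Dup-L 2, −0.205 for WT 1 minus WT 3 and −0.07 for WT 2 minus WT 4.

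Offsets fitted to GC content and length in each library reduced the calls to 639 of 16134 genes (3.96%), of which 534 were higher (3.31%) and 105 lower (0.651%) in Dup-C. Of these, 466 were also called without offsets. The share of higher genes among the calls was 83.6% with offsets and 64.6% without. Kcnj2, whose transcript has a GC content of 41.2%, was the gene of lowest p with offsets, with a log2 difference of 1.80 ± 0.23 (SE, edgeR adjusted p = 0.0163).

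**Figure D3:**
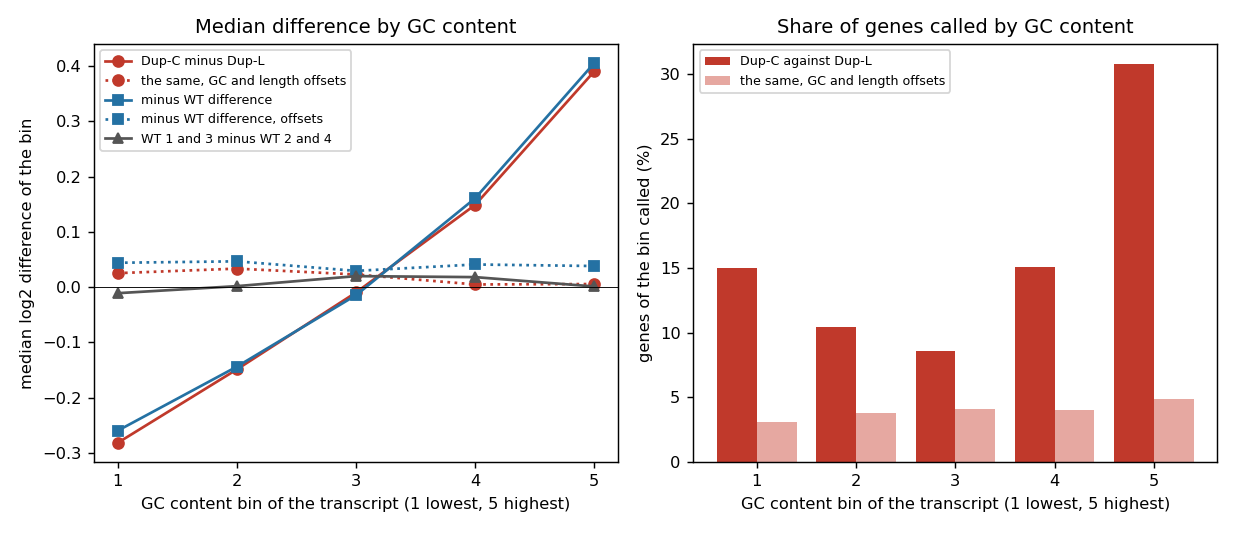
Left, median log2 difference in 5 bins of transcript GC content for Dup-C minus Dup-L and the WT pairs, before and after subtraction and offsets; right, share of genes called in each bin. The median climbed from −0.28 in the lowest to 0.39 in the highest bin for Dup-C minus Dup-L, stayed within −0.01 to 0.02 for WT, and was flat with offsets.

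After subtraction of the WT difference, 0 of 17655 genes passed the edgeR test (0%), with 1810 at an unadjusted p under 0.05. With GC and length offsets as well, 0 of 16134 passed (0%), with 884 at an unadjusted p under 0.05. DESeq2 on the same contrasts called 12 genes without offsets and 6 with them. The 12 were Gm1673, H1fx, Mxra8, Ndufb6, Nkx3-2, Nrtn, Rpl31-ps12, Rpl36, Safb2, Uqcrq and Zfp579, all higher, and Mmrn1, which had no count in Dup-C or in WT 1. With offsets, the 6 were Kcnj2, Mxra8, Rpl31-ps12, Scand1 and Uqcrq, all higher, and Mmrn1. What follows on this remainder is therefore a ranking by unadjusted p, not a set of calls of the edgeR test.

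Kcnj2 was 7th of 16134 genes in this ranking and 52nd of 17655 after subtraction without offsets. Without offsets 1.17 of its log2 difference remained (edgeR adjusted p = 0.454), and this lay between 0.987 and 1.40 over the alternatives tried, with adjusted p-values from 0.0744 to 0.831. With offsets, its remaining log2 difference was 1.50 ± 0.31 (SE), a 2.84-fold difference, with an unadjusted p of 4.13e-04 and an edgeR adjusted p of 0.80. Under DESeq2 it was 1.49 with an adjusted p of 0.00491. Over the alternatives with offsets, the remainder of Kcnj2 lay between 1.32 and 1.70, with adjusted p-values from 0.00491 to 1. Against the WT pair of its own library-number range only, WT 1 and WT 2, the remainder was 1.55 (edgeR adjusted p = 0.807).

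Further genes were named by lowest unadjusted p in the remainder, but only among those called between the duplications. They are therefore not the full top of the ranking. The higher ones besides Kcnj2 were mostly at WT levels in Dup-C and below them in Dup-L. Uqcrq, a subunit of respiratory complex III, had 57.5 and 54.1 CPM in Dup-C, 21.6 and 16.2 CPM in Dup-L and 47.0 to 62.8 CPM in WT. Both Dup-L libraries were below every other library named here, and the 2 Dup-C libraries lay among those of WT. Its log2 difference was 1.50 ± 0.21 (SE, edgeR adjusted p = 0.00906), and 1.29 remained (unadjusted p = 3.06e-04). Ndufb6, a subunit of complex I, had 25.8 and 27.1 CPM in Dup-C, 12.3 and 10.7 CPM in Dup-L and 23.0 to 27.8 CPM in WT, and 0.96 remained. Prdm16, a zinc-finger chromatin regulator, had 62 and 50 CPM in Dup-C and 20.7 and 19 CPM in Dup-L. Its Dup-L levels were below the 41.7 to 78.8 CPM of WT, and 0.61 remained. Libraries of the boundary deletion and of Dup-L with it ran from 23.7 to 52.8 CPM for Uqcrq. They ran from 12.9 to 22.8 CPM for Ndufb6 and from 41.1 to 88.1 CPM for Prdm16. Levels below WT were therefore not particular to Dup-L for Uqcrq and Ndufb6.

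Gm1673, Scand1, Cog1 and Ddi2 showed the same order of libraries. Scand1, a small SCAN-domain gene, had 5.34 and 4.63 CPM in Dup-C, 0.873 and 0.520 CPM in Dup-L and 3.41 to 10.1 CPM in WT, and 2.28 remained. Cog1, part of the Golgi tethering complex, had 1.41 and 1.68 CPM in Dup-C and 0.450 and 0.260 CPM in Dup-L, from 72 and 62 counts against 17 and 10. Among libraries of the boundary deletion and of Dup-L with it, Scand1 ran from 1.09 to 6.67 CPM and Cog1 from 0.39 to 2.3 CPM. Rpl31-ps12 and Rpl13a-ps1, named as pseudogenes of ribosomal proteins, were also on this list. Their reads may be shared with the parent genes, so their values are uncertain.

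C1qtnf1, a secreted protein gene with a C1q domain, had 9.52 and 7.12 CPM in Dup-C, 13.9 and 12.3 CPM in Dup-L and 12.3 to 14.7 CPM in WT. Of the 10 lower genes named from the remainder, it was the 1 with Dup-C below WT and Dup-L within it. Its remaining log2 difference was −1.04 (unadjusted p = 0.00164, edgeR adjusted p = 0.80). Libraries of the boundary deletion and of Dup-L with it ran from 6.81 to 16.1 CPM for C1qtnf1. A level below WT was therefore not particular to Dup-C. Twist2, a transcription factor of undifferentiated mesenchyme, had 14.6 and 12.53 CPM in Dup-C, 21.1 and 18.5 CPM in Dup-L and 14.8 to 18.3 CPM in WT, so the duplications flanked the WT range from below and above. Nr3c2, the mineralocorticoid receptor, Htr3a, a serotonin-gated channel subunit, Edn1, the signalling peptide endothelin, and Tor1aip2 and E130311K13Rik had the same order of groups. The remaining log2 differences of the 10, with offsets, ran from −0.30 in Tor1aip2 to −1.82 in F930015N05Rik. The value of F930015N05Rik, whose transcript has a GC content of 68.8%, rests largely on the offsets. Its log2 difference between the duplications was −0.88, and −0.49 was left after subtraction without offsets. In Arl5a, Lysmd2 and F930015N05Rik the Dup-L libraries were above WT and Dup-C overlapped it.

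**Figure D4:**
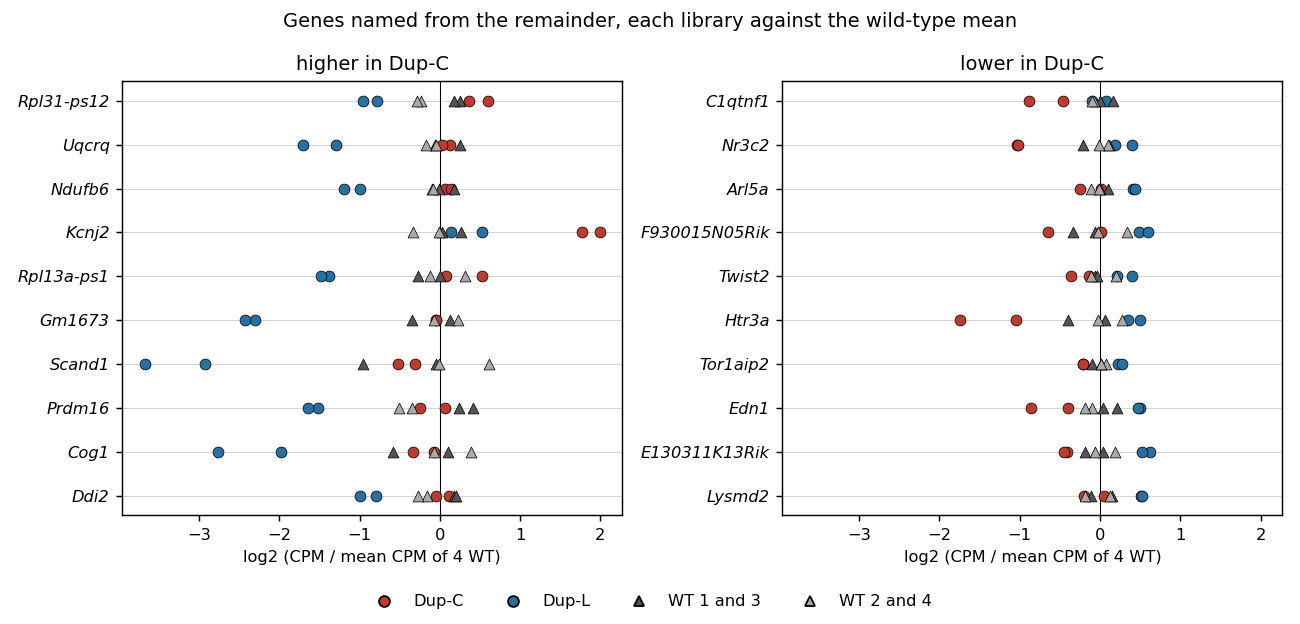
Log2 of each library's CPM over the mean of the 4 WT libraries for 10 higher and 10 lower genes. Circles are Dup-C and Dup-L, and triangles are WT. Among genes called between the duplications with a mean of at least 1 CPM, these had the lowest unadjusted p in the remainder. Kcnj2 is the gene with Dup-C on the right and Dup-L among WT, while for Uqcrq, Ndufb6, Scand1, Cog1 and most other higher genes Dup-L stands to the left and Dup-C among WT.

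Which duplication stood apart from WT was counted for all called genes, where a group counts as apart if both of its libraries were above, or both below, all 4 WT libraries. Of the 1728 genes higher in Dup-C, Dup-L alone was apart for 1462 (84.6%) and Dup-C alone for 32 (1.85%). Of the 946 lower genes, Dup-L alone was apart for 615 (65.0%) and Dup-C alone for 73 (7.72%). Over all 17655 genes tested, Dup-L alone was apart for 39.0% and Dup-C alone for 6.86%. Among the 534 genes higher with offsets, Dup-L alone was apart for 373 (69.9%) and Dup-C alone for 53 (9.93%). The levels that place the libraries carry no offsets. Among genes with a mean of at least 1 CPM, only 3 were higher in Dup-C by the test, above WT in both Dup-C libraries, not below WT in Dup-L, and at least 1 on the log2 scale in the remainder. They were Kcnj2, Swi5, a DNA-repair factor, and Rhag, a red-cell membrane protein, picked out after their values had been seen. Swi5 had 2.81 and 3.0 CPM in Dup-C, 1.11 and 0.860 CPM in Dup-L and 1.08 to 2.73 CPM in WT. Rhag had 4.61 and 5.57 CPM in Dup-C, 1.16 and 1.14 CPM in Dup-L and 1.14 to 3.90 CPM in WT.

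Fgf8, the growth factor of the apical ectodermal ridge, had 5.04 and 10.2 CPM in Dup-C and 1.19 and 1.09 CPM in Dup-L. WT 1 and 3 had 6.0 and 3.52 CPM, and WT 2 and 4 had 2.20 and 2.31 CPM. Dup-L was below all WT libraries, and Dup-C overlapped WT 1 and 3. The log2 difference was 2.67 ± 0.55 (SE, edgeR adjusted p = 0.0121), 1.95 with offsets (edgeR adjusted p = 0.057) and 0.86 after subtraction and offsets (unadjusted p = 0.187). In bulk limb buds, fewer ridge cells and less RNA per ridge cell cannot be told apart.

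Of 20 ridge genes, 8 were higher in Dup-C and 0 lower (9.79% of all genes were higher), with a median log2 difference of 0.57. With offsets, 3 of the 20 were higher (3.31% of all genes). The 8 were Fgf8, Jag2, Sp9, Rspo2, Bmp4, Dlx2, Dlx3 and En1. Log2 differences were positive for 15 of the 20. The other Fgf genes of the list did not pass, with −0.45 for Fgf4, −0.41 for Fgf9 and 0.47 for Fgf17. For Fgf9, both Dup-L libraries were above all WT libraries. Sp8 (1.199) and Dlx5 (0.66) did not pass either. Jag2, a Notch ligand, had 63.1 and 72.0 CPM in Dup-C, 29.5 and 24.2 CPM in Dup-L and 56.5 to 86.5 CPM in WT, so Dup-L was below the other libraries. Its log2 difference was 1.27 ± 0.21 (SE, edgeR adjusted p = 0.00906), and 0.26 remained. The WT pairs differed in the same direction over this list (median 0.39), and the median remainder was 0.19. In the surface ectoderm list 3 of 18 genes were higher and 0 lower (9.79% of all genes were higher), and 1 was higher with offsets. Its median was 0.41 between the duplications and −0.10 in the remainder, and its summed level was 1060 and 1330 CPM in Dup-C, 1000 and 729 CPM in Dup-L and 1000 to 1530 CPM in WT. The part of ectoderm in the ridge result was not tested. Krt8, an epithelial keratin, had 7.58 and 12 CPM in Dup-C and 2.62 and 1.98 CPM in Dup-L (log2 difference 2.03, edgeR adjusted p = 0.00906), and 0.75 remained.

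Distal mesenchyme had 4 of 16 genes higher and 0 lower in Dup-C: Sall3, Lhx2, Msx1 and Sall4 (9.79% of all genes were higher). With offsets, 0 of the 16 distal genes and 0 of 18 BMP pathway genes passed, and of 19 Wnt genes 0 were higher and 1 lower. Msx1, a homeobox target of BMP signalling, had 39.8 and 33.6 CPM in Dup-C and 12.9 and 10.4 CPM in Dup-L, and 38.3 to 41.6 CPM in WT. Dup-C 1 lay within the WT range, Dup-C 2 just below it and Dup-L far below it, and 1.18 of the log2 difference of 1.59 remained (unadjusted p = 0.0456). Without offsets 5 of the BMP pathway genes were higher, which besides Msx1 were the ligand Bmp4, the inhibitor Smad6 and the targets Id1 and Id3, and the receptor gene Bmpr1a was lower. In the hedgehog list of 13, the genes that passed included Hand2, a transcription factor upstream of the ligand Shh, which was higher, and Hhip, a binding inhibitor of the ligand, which was lower. Hhip had 19.5 and 13.2 CPM in Dup-C, 53.6 and 44.6 CPM in Dup-L and 16.7 to 39.6 CPM in WT, and −0.50 of −1.64 remained. Of the Wnt genes 4 were higher and 2 lower without offsets, beside 15.1% of all genes in either direction, the ligands Wnt3 and Wnt6 and the feedback inhibitors Notum and Nkd1 against the antagonists Sfrp1 and Dkk2. None of 12 genes of the FGF response passed.

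Of 12 proximal limb genes 1 was higher and 1 lower, near the 15.1% over all genes, and 0 passed with offsets. Cyp26b1, which breaks down retinoic acid, had 233 and 302 CPM in Dup-C and 109 and 111 CPM in Dup-L, and Rarb, a retinoic acid receptor gene, had 18.0 and 8.88 CPM in Dup-C and 41.2 and 36 CPM in Dup-L. Both passed between the duplications (edgeR adjusted p = 0.0121 and 0.0358). Lmx1b, the dorsal determinant of the limb, had 37.5 and 36.1 CPM in Dup-C and 16.2 and 17.2 CPM in Dup-L, below the 33.3 to 41.9 CPM of WT. Its log2 difference was 1.08 ± 0.19 (SE, edgeR adjusted p = 0.00906), 0.75 with offsets (edgeR adjusted p = 0.022), and 0.61 remained (unadjusted p = 0.00298). Of 17 anterior-posterior genes without offsets, Tbx2 and Hand2 were higher and Tbx18 and Pax1 lower. Over all genes, 9.79% were higher and 5.36% lower. With offsets 0 of the 17 were higher and 3 lower, beside 3.31% and 0.651% of all genes.

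Of 21 cartilage genes 1 passed, Nkx3-2, a homeobox repressor that promotes cartilage formation, at 5.38 and 3.57 CPM in Dup-C and 1.61 and 1.25 CPM in Dup-L, and it did not pass with offsets (log2 difference 0.49, edgeR adjusted p = 0.159). The median of the list was −0.42 between the duplications, −0.67 between the WT pairs and 0.22 after subtraction and offsets. The 2 Dup-C libraries differed from each other in mature cartilage genes. Matn1, a cartilage matrix protein gene, had 5.85 and 0.406 CPM in Dup-C, 6.45 and 6.11 CPM in Dup-L and 3.17 to 30.2 CPM in WT. Acan, the main cartilage proteoglycan, had 16.0 and 4.19 CPM in Dup-C and 21.6 and 19.7 CPM in Dup-L.

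Of 13 tendon genes 4 were lower in Dup-C and 0 higher, Kera, Dcn, Mkx and Htra3 (5.36% of all genes were lower). With offsets 1 was lower, Htra3. Positive log2 differences were found for 2 of the 13, Scx (0.48) and Col1a1 (0.21), and neither passed. The list ran at a median of −0.66, beside −0.36 between the WT pairs and −0.36 after subtraction and offsets. Kera, a keratan sulfate proteoglycan, had 29.9 and 39.5 CPM in Dup-C, 70.3 and 76.6 CPM in Dup-L and 35.1 to 45.2 CPM in WT. Dup-L was above all WT libraries and Dup-C overlapped them. Mef2c, Col10a1 and Runx2, genes of hypertrophic cartilage and bone, were lower in Dup-C (3 of 12), but 0 passed with offsets and the median of that list was −0.05, near the −0.04 of all genes. Lower as well were Dcx and Trps1 among 15 joint genes. Of these 5, Dcx passed with offsets (log2 difference −0.64, edgeR adjusted p = 0.0434). Skeletal muscle had 1 of 23 genes called, Lbx1, a homeobox gene of migrating muscle precursors, at 0.981 and 1.73 CPM in Dup-C and 0.423 and 0.260 CPM in Dup-L. The muscle median was −0.13 between the duplications, −0.63 between the WT pairs and 0.34 after subtraction and offsets.

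Of the erythroid list of 15, 10 genes were tested and 3 were higher in Dup-C, Hba-x, Klf1 and Epor, with 0 lower (9.79% of all genes were higher). With offsets 1 was higher (3.31% of all genes). The median log2 difference of the list was 1.44, beside 0.881 between the WT pairs. The summed level of the list was 4430 and 4450 CPM in Dup-C, 2440 and 1740 CPM in Dup-L and 1900 to 5200 CPM in WT. Hbb-y, the embryonic globin that gave most of this sum, did not pass (log2 difference 0.88, edgeR adjusted p = 0.118). The adult globin gene Hba-a1, which has a near-identical copy, was at 0 in Dup-C and WT and had at most 0.052 CPM in Dup-L. Hba-x, an embryonic globin, had 753 and 738 CPM in Dup-C and 257 and 198 CPM in Dup-L, and 316 to 754 CPM in WT. Its log2 difference was 1.65 ± 0.35 (SE, edgeR adjusted p = 0.0134), and 0.60 remained. Rhag, named above, is a gene of the same cells. The part of blood in the other results was not tested. No member of the endothelial list (16 tested) or the macrophage list (14 tested) passed, and their summed levels overlapped between the duplications, with 463 and 371 CPM in Dup-C and 452 and 429 CPM in Dup-L for endothelium.

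**Figure D5:**
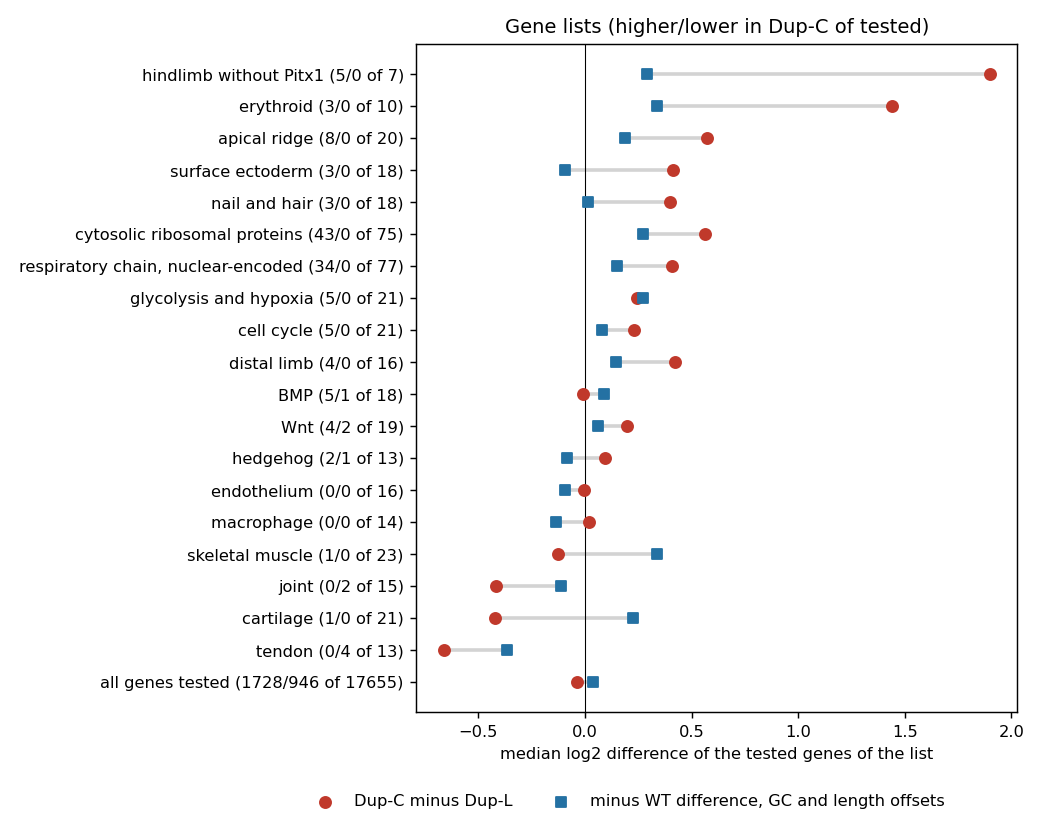
Median log2 difference of the tested genes of each list for Dup-C minus Dup-L (circles) and after subtraction of the WT difference with GC and length offsets (squares), with counts of genes higher and lower in Dup-C. Hindlimb genes besides Pitx1, erythroid and ridge lists had medians of 1.90, 1.44 and 0.57, and these were 0.29, 0.34 and 0.19 in the remainder.

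Housekeeping lists were higher in Dup-C across many members. Of 75 cytosolic ribosomal protein genes 43 were higher and 0 lower (9.79% of all genes were higher), and 26 were higher with offsets (3.31% of all genes). Their summed level was 53900 and 54500 CPM in Dup-C, 38800 and 34400 CPM in Dup-L and 42900 to 59500 CPM in WT. Dup-L was below all WT libraries, and Dup-C lay within their range. Rpl36, of the large ribosomal subunit, had 337 and 327 CPM in Dup-C, 135 and 102 CPM in Dup-L and 272 to 365 CPM in WT, and 0.52 of a log2 difference of 1.43 remained. The list's median was 0.56 between the duplications and 0.27 in the remainder, beside 0.04 over all genes. Of 77 nuclear-encoded genes of the respiratory chain 34 were higher and 0 lower, and 17 passed with offsets, with a median of 0.41 and a remainder of 0.15. Of 22 genes of spliceosomal Sm and Sm-like proteins 8 were higher and 6 passed with offsets. Snrpd2 had 139 and 145 CPM in Dup-C and 76.1 and 73.9 CPM in Dup-L. These 3 lists were added once the data had been seen, and many ribosomal protein genes have near-identical processed copies.

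Some glycolysis and cell-cycle genes were also higher. Gapdh, a glycolytic enzyme gene that also has pseudogene copies, had 1120 and 918 CPM in Dup-C, 483 and 464 CPM in Dup-L and 960 to 1510 CPM in WT. Its log2 difference was 1.05 ± 0.20 (SE, edgeR adjusted p = 0.00989), and 0.75 remained (unadjusted p = 0.00419). Besides Gapdh, the enzymes Pfkl, Pkm, Hk1 and Ldha were higher, 5 of 21 genes with 0 lower (9.79% of all genes were higher), 1 of 21 was higher with offsets (3.31% of all genes), and the median was 0.24 with a remainder of 0.27. Of 21 cell-cycle genes 5 were higher, Plk1, Mcm2, Mcm3, Mcm5 and Ccnd1, 0 were lower, and 3 were higher with offsets. Plk1, a mitotic kinase, had 116 and 129 CPM in Dup-C, 64.8 and 61.0 CPM in Dup-L and 91.5 to 133 CPM in WT, and 0.31 of 0.90 remained. Among 17 immediate early and heat-shock genes, Ier2, Jund, Junb and Hspa1b were higher, and 1 of the 17 was higher with offsets. Jund had 65.2 and 58.7 CPM in Dup-C, 26.6 and 22.4 CPM in Dup-L and 57.6 to 72.7 CPM in WT, and its log2 difference was 1.28 without and 0.23 with offsets, where it did not pass (edgeR adjusted p = 0.158).

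Promoter composition was described for the called genes, using the same 250-base windows. A window was found for 11709 of the 17655 genes tested, for 1308 of the genes higher in Dup-C and for 647 of the lower ones. Median promoter GC content was 61.6% for higher genes, 58.4% for lower genes and 59.2% for all tested. With offsets it was 60.4% for higher and 60.8% for lower genes. Median transcript GC content of the calls without offsets was 56.4% for higher and 43.7% for lower genes. GGGCGG occurred in 65.4% of the higher, 52.1% of the lower and 56.2% of all tested genes. With offsets it occurred in 63.0% of the higher and 52.4% of the lower genes. CCGGAAG occurred in 15.4% of the higher, 8.19% of the lower and 11.9% of all tested genes. With offsets it occurred in 18.3% of the higher and 12.2% of the lower genes, of which only 82 had a window. CCAAT differed less, with 36.3% of the higher, 38.9% of the lower and 35.4% of all tested genes.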

How the data were processed

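The deposited file holds raw counts per gene, made by the authors from reads aligned to mm9 with STAR, and DESeq2 and bedtools 2.17.0 are also named, per the submitters' processing notes. Neither the counting tool nor the use of strand is named in the sources used here, so overlapping antisense genes cannot be told apart. Libraries were polyA-selected with a TruSeq kit, per the labels. The table has 34682 genes, 10244 of them at 0 in all libraries. A table of FPKM values and 2 fingertip samples of a later stage were not used here.

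The main test was edgeR 4.0.16 under R 4.3.3, a robust quasi-likelihood F-test, two-sided, after filterByExpr and TMM scaling, with Benjamini-Hochberg adjustment and a threshold of 0.05. All 15 libraries entered 1 fit of 6 groups. A fit with the WT libraries in 2 sets gave the subtraction. Levels are CPM on TMM-scaled library sizes, fold changes are log2, and the SE is the fold change over the square root of F. GC content and length came by symbol from an annotation of another build, GRCm38, for 91.4% of the 17655 genes tested, as per-library natural splines with 5 degrees of freedom fitted to genes of at least 1 CPM. DESeq2 1.42.0 was an alternative. The scripts were tested on simulated data.

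Members and lists were chosen with earlier results of these data known. Genes named are the locus genes, Pitx1 and Fgf8, 10 genes of lowest p in the remainder in each direction among those called, and the 2 of lowest p in each list; other list members are named where they passed or to describe the cell type. Some genes that this rule covers are not reported here. Genes under 1 CPM rest on few counts.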

Additional observations from a re-analysis of the deposited data

How the results depend on the processing

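The number of genes called between Dup-C and Dup-L was 2674. It was 5568 with only the libraries compared, 639 with GC and length offsets, and 0 with Pitx1 as a covariate (639 at an unadjusted p under 0.05). RLE scaling gave 2694, no count filter 2392 (78.9% higher against 64.6%), DESeq2 3584 and a term for library-number range 3648. Leaving out any 1 of the 4 duplication libraries gave 0 genes each time. A replicate block gave 2120 genes and a log2 difference of Kcnj2 of 1.48. The labels do not say whether same-numbered Dup-C and Dup-L libraries share more than a number. Deviations of Dup-C 1 and Dup-L 1 from their group means correlated at 0.0748 across genes. This cannot decide the question, since all genes come from the same few libraries. No block could be fitted for the subtraction, where WT numbers coincide with the WT pairs. Kcnj2 was positive under all alternatives, with a log2 difference of 1.13 to 1.80. It did not pass without a duplication library (1.29 to 1.70) or with Pitx1 as a covariate (1.13, edgeR adjusted p = 0.984). Under that covariate Lhx2 reversed to −0.0711 (edgeR adjusted p = 0.989). The cause was not tested. After subtraction, the count of 0 became 12 with DESeq2, 0 to 10 without 1 library (10 without WT 1, 1 without WT 3), 3 with WT 1 and 2 only and 9 with WT 3 and 4 only. With offsets as well it became 6 with DESeq2, 0 to 7 without 1 library (7 without WT 1) and 7 with WT 3 and 4 only. Of the 64 named genes called between the duplications, 29 were called with offsets, 58 with no filter, 58 with the block and 0 without any 1 of the 4 libraries. At this depth Kcnj16, with 3 counts or fewer in each duplication and WT library, could not be compared.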

Other observations

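Mmrn1, which encodes a platelet and endothelial protein, was at 0 CPM in Dup-C 1, Dup-C 2 and WT 1. Dup-L libraries gave 8.25 and 15.2 CPM, and WT 2, 3 and 4 gave 6.08, 14.6 and 13.1 CPM. It was picked out after its values were seen. The labels name no strain for any of these libraries, and the part of genetic background was not tested.

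Fbxo44, Miip and Fv1, all on chromosome 4, stood apart in WT 3. Fbxo44, an F-box gene, had 16.4 and 11.2 CPM in Dup-C, 14.8 and 14.6 CPM in Dup-L, but 1.16 CPM in WT 3. In WT 1, 2 and 4 it had 14, 16.8 and 18.4 CPM. Fv1, a retroviral restriction gene, had 12.9 and 14.6 CPM in Dup-C, 13.4 and 13.5 CPM in Dup-L, but 5.11 CPM in WT 3. The genes called after subtraction without WT 1 included Fbxo44, Miip and Mmrn1.

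Ifit1, an interferon-induced gene, was at most 1.28 CPM in Dup-C and 0.741 CPM in Dup-L, while WT 1 had 12.6 CPM and the other WT libraries at most 0.619 CPM. It was the 1 gene called after subtraction without WT 3. Xlr3a, an X-linked gene with close copies, had 5.26 and 5.79 CPM in Dup-C, 12.6 and 14.5 CPM in Dup-L, 2.09 CPM in WT 2 and 13.3 CPM in WT 4, and it was among the 3 genes called with WT 1 and 2 only.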
